A study of Saccharomyces cerevisiae with 4 samples.

Results

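The phosphate starvation and polyphosphate genes of budding yeast (Saccharomyces cerevisiae) are described here in a strain that makes Swd2 with 9 Myc epitopes fused to the N-terminal end (9Myc-Swd2) and in a wild type (WT) that the design text calls isogenic. The 10 genes are PHO84, PHO89, SPL2, PHM6, PHM8, VTC1, VTC3, VTC4, PHO5 and PHO81, matched by gene name, and all 10 were found among the 6697 genes of the deposited table. They were selected on their fold changes between the strains in these same 4 libraries, some for a difference and some for its absence, so these fold changes are given as a description, without p-values. How many of the 10 lay past the threshold of the fit over all genes is stated once, beside the same count for all genes, and nothing is read from it. Total RNA of cells grown in YPD, a rich glucose medium, to an OD600 of 1.0 at 30 °C was sequenced from 2 libraries per strain, with 7849193 to 8388090 reads per library. Swd2 is a WD-repeat subunit of COMPASS, the histone H3 lysine 4 methyltransferase complex, and of the cleavage and polyadenylation factor. Nothing in the labels says that libraries of a strain came from separate cultures, so the spread between them may be technical.

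In yeast that has enough phosphate, the kinase Pho85 with its cyclin Pho80 phosphorylates the transcription activator Pho4, which is then kept out of the nucleus. When phosphate falls, Pho81 inhibits the kinase, and Pho4 acts with Pho2 on genes for phosphate uptake, for release of phosphate from organic compounds and for storage of phosphate as polyphosphate in the vacuole. Pho4 binds the core CACGTG, and more weakly CACGTT. SPX domains, found in Pho81, in Vtc2 to Vtc5 and in several transporters, bind inositol pyrophosphates, the molecules through which yeast reads its phosphate supply.

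Every one of the 10 genes had a Pho4-type core within 600 bases before its start codon. The search used the RefSeq R64 genome of strain S288C, the assembly that sacCer3 names, and covered CACGTG, which reads the same on both strands, and CACGTT with its reverse complement AACGTG. Of 5999 such windows of protein-coding genes, 24.4% held either core, 7.23% held CACGTG and 18.8% held CACGTT; 9 of the 10 members held CACGTG and 7 held CACGTT. A window can reach into a neighbouring gene, and a match is a description of the letters, not a binding site. The following sites, each with 12 bases on either side, 5′ to 3′ on the gene's own strand with the core in capitals, are shown because genes with similar cores stood far apart in fold change. The first 3 belong to genes that were more than doubled, the next 3 to genes whose libraries overlapped between the strains, and the last to a polyphosphate gene. The VTC4 stretch ends in a further CACGTG, left in lower case there, which is a separate match of that gene.
PHO84: tgttatttccagCACGTGgggcggaaatta
SPL2: aaatgatgtacgCACGTGggcgaaagttca
PHM8: aaagggggcagcAACGTGcttcacatacaa
PHO89: atgacaatgcagCACGTGggagacaaatag
PHM6: gagcttcgctgaCACGTGggaggtgggata
PHO5: ccttggcactcaCACGTGggactagcacag
VTC4: attattcatccgCACGTGgctgcacacgtg
These sites lie at chrXIII:26197-26226, chrVIII:375230-375259, chrII:798828-798857, chrIV:1022583-1022612, chrII:431187-431216 and chrX:413507-413536 on the minus strand, and for PHM8 at chrV:225602-225631 on the plus strand. The letters CACGTGGG, searched on both strands after the sites had been seen, occurred upstream of 6 members (PHO84, PHO89, SPL2, PHM6, VTC3 and PHO5) and in 0.550% of all windows. PHO89, PHM6 and PHO5 share this longer word with PHO84 and SPL2. The word was picked from the members' own sites, so its count among them is only a description. Whether the cores bear on the fold changes was not tested.

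SPL2 and PHO84 had the most matches, with 4 each, PHM6 and VTC3 had 3 each, and PHM8 and VTC1 had 1 each. Thus 4 of the 10 members held 3 or more, beside 0.750% of all windows. The densest 300 bases upstream of PHO84 (chrXIII:26057-26356, minus strand) and of PHO5 (chrII:431106-431405, minus strand), which hold 3 and 2 matches in capitals, are given below because these genes are the textbook pair of the pathway and stood far apart in these libraries.
PHO84: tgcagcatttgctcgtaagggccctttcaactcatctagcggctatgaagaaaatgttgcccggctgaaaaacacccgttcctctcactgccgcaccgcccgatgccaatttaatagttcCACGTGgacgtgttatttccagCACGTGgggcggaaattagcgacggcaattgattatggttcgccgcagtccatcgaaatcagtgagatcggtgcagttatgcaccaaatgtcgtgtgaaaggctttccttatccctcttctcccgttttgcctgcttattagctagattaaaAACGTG
PHO5: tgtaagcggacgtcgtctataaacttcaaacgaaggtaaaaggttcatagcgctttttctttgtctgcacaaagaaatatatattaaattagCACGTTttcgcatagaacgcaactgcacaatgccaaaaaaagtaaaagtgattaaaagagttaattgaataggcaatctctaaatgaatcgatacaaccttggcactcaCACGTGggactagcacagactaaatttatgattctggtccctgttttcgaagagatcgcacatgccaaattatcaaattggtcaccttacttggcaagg

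**Figure D1:**
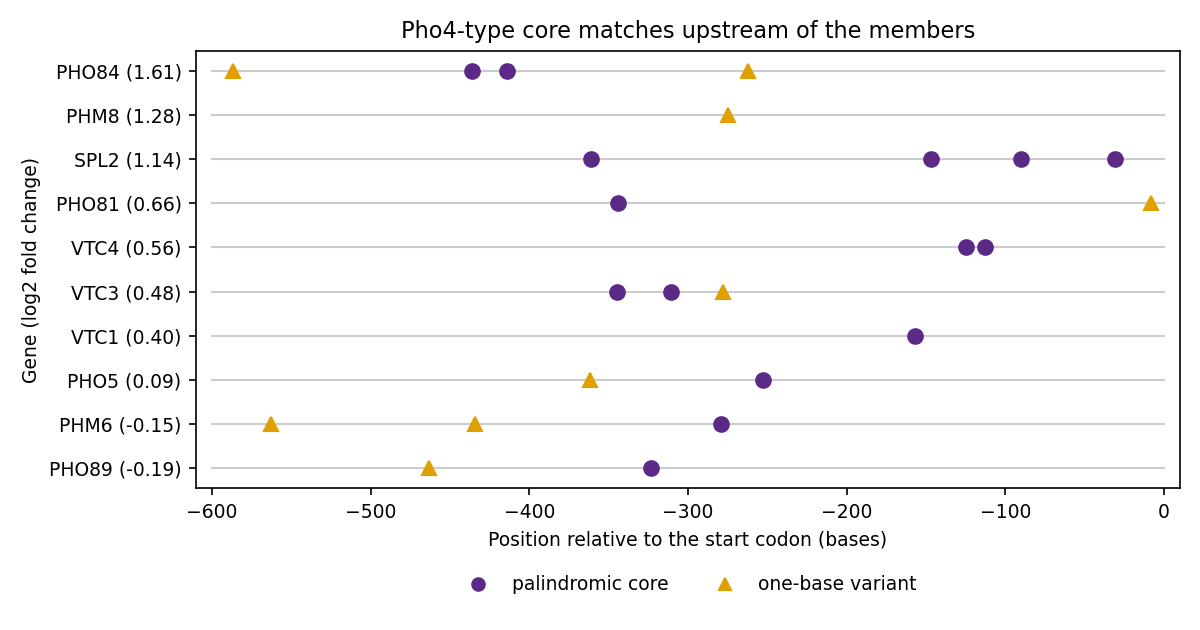
Positions of the palindromic core (circles) and of its one-base variant (triangles) in the 600 bases before the start codon of each member, with the log2 fold change of 9Myc-Swd2 over WT beside each name and genes ordered by it. PHO84 and SPL2, with log2 fold changes of 1.61 and 1.14, have 4 matches each. PHM8, with 1.28, has 1 match, and PHM6, with -0.15, has 3.

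The libraries differed beyond these genes, which bears on every comparison of the strains. SWD2 itself was at 335 and 351 normalized counts in WT and at 1080 and 969 in 9Myc-Swd2. Genes of chromosome XI, which carries SWD2, took 5.78% and 5.80% of the reads in WT and 9.66% and 9.41% in 9Myc-Swd2, and their median log2 fold change was 0.90, against -0.02 for genes elsewhere. The LEU2 gene, often used as a selectable marker, stood at 31.4 and 22.4 in WT and at 2276 and 2163 in 9Myc-Swd2. None of the 10 members and none of the 38 other pathway genes described below lies on chromosome XI. The part of the extra chromosome XI reads and of LEU2 in the results was not tested, and the tag cannot be told apart from other differences between the strains.

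PHO84 encodes the high-affinity phosphate/proton symporter of the plasma membrane (YML123C, chrXIII:24037-25800, minus strand, 1 exon). Its normalized counts were 1822 and 1761 in WT and 5124 and 5815 in 9Myc-Swd2. Both tagged libraries stood above both WT libraries, and the lower of them was 2.81-fold above the higher WT library. The means were 1792 ± 43.0 and 5469 ± 488 (SD over 2 libraries each), and the log2 fold change was 1.61 ± 0.07 (SE) on the scale of log2(value + 1). By log2 fold change it ranked 9 among the 6161 tested genes off chromosome XI. An annotated noncoding RNA on the opposite strand, YNCM0001W, covers all 1764 bases of PHO84, and whether reads were counted by strand is not given in the sources used here, so sense and antisense reads could not be told apart.

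PHO89 encodes the other high-affinity transporter, a sodium/phosphate cotransporter (YBR296C, chrII:796798-798522, minus strand). Its normalized counts were 473 and 419 in WT and 326 and 466 in 9Myc-Swd2. One tagged library lay below both WT libraries and the other between them, so the groups overlapped. The log2 fold change was -0.19 ± 0.13; it was 0.06 without 9Myc-Swd2 replicate 1 and -0.45 without 9Myc-Swd2 replicate 2. In PHO89 over PHO84, a ratio within a library that no scaling between libraries can move, the values were 0.260 and 0.238 in WT and 0.0637 and 0.0801 in 9Myc-Swd2.

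SPL2 encodes a small protein that lowers uptake through the low-affinity transporter Pho87 during phosphate starvation (YHR136C, chrVIII:374654-375100, minus strand). It was at 178 and 182 normalized counts in WT and at 393 and 403 in 9Myc-Swd2. Replicates were close in both strains and the groups were far apart, with a log2 fold change of 1.14 ± 0.10. As a ratio to PHO84 within a library SPL2 was at 0.0975 and 0.103 in WT and at 0.0768 and 0.0693 in 9Myc-Swd2, which is a smaller difference between the strains for SPL2 than for PHO84 in these libraries.

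**Figure D2:**
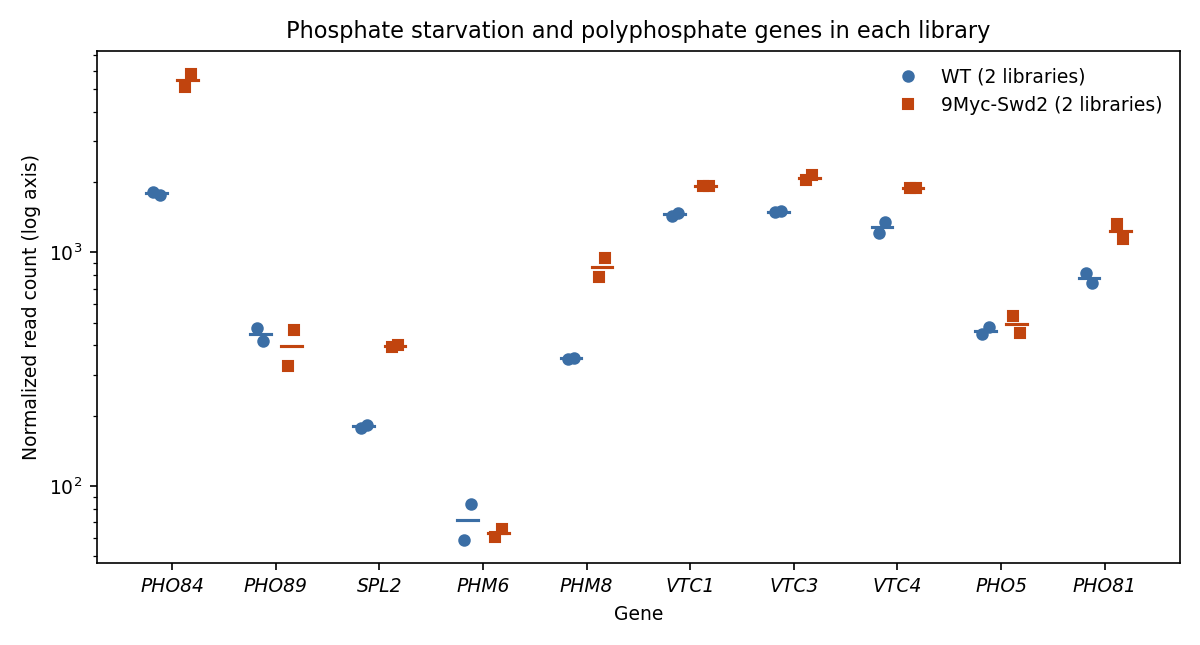
Normalized read counts (log axis) of the 10 members in the 2 WT libraries (circles) and the 2 9Myc-Swd2 libraries (squares), with the group means as lines. The squares of PHO84, SPL2, PHM8, PHO81 and the 3 VTC genes lie above the circles, and those of PHO89, PHM6 and PHO5 overlap them.

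The 3 polyphosphate genes among the members, VTC1, VTC3 and VTC4, were higher in both tagged libraries by smaller amounts. Of the 5 other polyphosphate genes described below, none passed as higher and 3, VTC2 among them, passed as lower. Vtc4 is the subunit of the vacuolar transporter chaperone complex that makes polyphosphate, Vtc3 a subunit with an SPX domain, and Vtc1 a small membrane subunit. VTC4 (YJL012C, chrX:411234-413399, minus strand) was at 1215 and 1351 normalized counts in WT and at 1895 and 1893 in 9Myc-Swd2, a log2 fold change of 0.56 ± 0.07. VTC3 (YPL019C, chrXVI:514511-517018, minus strand) was at 1485 and 1509 in WT and at 2038 and 2144 in 9Myc-Swd2, a log2 fold change of 0.48 ± 0.07. VTC1 (YER072W, chrV:302806-303195, plus strand) was at 1438 and 1478 in WT and at 1924 and 1924 in 9Myc-Swd2, a log2 fold change of 0.40 ± 0.07. The groups did not overlap for any of the 3. Among all tested genes off chromosome XI, both tagged libraries lay above both WT libraries for 32.8% and below them for 37.5%. The ratio of VTC4 to VTC3 within a library overlapped between the strains, at 0.818 and 0.895 in WT and 0.930 and 0.883 in 9Myc-Swd2. By contrast, VTC3 over PHO84 was 0.815 and 0.857 in WT and 0.398 and 0.369 in 9Myc-Swd2.

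PHO5 encodes the repressible acid phosphatase secreted to the periplasm, the classical reporter of phosphate starvation (YBR093C, chrII:429548-430951, minus strand). Its normalized counts were 446 and 477 in WT and 535 and 451 in 9Myc-Swd2. The tagged libraries lay on either side of the higher WT library, and the log2 fold change was 0.09 ± 0.10. It was -0.03 without 9Myc-Swd2 replicate 1 and 0.21 without 9Myc-Swd2 replicate 2. PHO84 over PHO5 within a library was 4.09 and 3.69 in WT and 9.58 and 12.9 in 9Myc-Swd2, and SPL2 over PHO5 was 0.399 and 0.381 in WT and 0.736 and 0.895 in 9Myc-Swd2. PHO5 is 86.5% identical over its coding sequence to its neighbour PHO3. Of its 50-base words 8.71% occur in PHO3 too, 3.62% in PHO11 and 2.58% in PHO12. Part of the PHO5 count may therefore depend on how shared reads were assigned.

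PHM8 encodes a phosphatase of lysophosphatidic acid and of nucleotides (YER037W, chrV:225889-226854, plus strand). It was at 351 and 355 normalized counts in WT and at 784 and 943 in 9Myc-Swd2, a log2 fold change of 1.28 ± 0.09. The WT libraries were close together and the tagged ones spread more, with the lower still 2.21-fold above the higher WT library. PHM6, a small protein of unknown function (YDR281C, chrIV:1022007-1022321, minus strand), was at 58.9 and 83.6 in WT and at 60.6 and 65.5 in 9Myc-Swd2. Its groups overlapped, and its log2 fold change of -0.15 ± 0.20 rests on 57 to 86 reads per library; it was 0.10 without WT replicate 2 and -0.40 without WT replicate 1. PHO81, the inhibitor of the Pho80-Pho85 kinase and an SPX domain protein (YGR233C, chrVII:954674-958210, minus strand), was at 816 and 742 in WT and at 1329 and 1144 in 9Myc-Swd2. The tagged libraries lay above the WT ones, with a log2 fold change of 0.66 ± 0.08.

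Levels within a strain also ordered the genes, here as normalized counts per kilobase of coding sequence. The order depends on this division by length. VTC1, with 390 coding bases, leads per kilobase but lay below PHO84 in mean normalized counts. These were 1458 against 1792 in WT and 1924 against 5469 in 9Myc-Swd2. In WT, VTC1 was at 3739 ± 73.2 and PHO84 at 1016 ± 24.4 (SD, n = 2), followed by VTC3 at 597 ± 6.75 and VTC4 at 592 ± 44.5, whose libraries overlapped. SPL2 at 402 ± 6.37, PHM8 at 365 ± 2.97 and PHO5 at 329 ± 15.9 came next with separate libraries, and PHO89 at 259 ± 22.3, PHM6 at 226 ± 55.4 and PHO81 at 220 ± 14.9 closed the order, with the libraries of PHM6 overlapping those of both others. In 9Myc-Swd2, VTC1 at 4933 ± 1.54 and PHO84 at 3101 ± 277 still led, and PHM8 at 894 ± 116 and SPL2 at 891 ± 15.5 stood above VTC4 at 874 ± 0.552 and VTC3 at 834 ± 29.8. The libraries of PHM8 spanned those of SPL2, VTC4 and VTC3. PHO5 at 351 ± 42.4 and PHO81 at 350 ± 37.0 overlapped each other, as did PHO89 at 230 ± 57.1 and PHM6 at 200 ± 11.0 below them.

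Counted together, 7 of the 10 members were higher in 9Myc-Swd2 with an adjusted p under 0.05 in the limma-trend fit over all 6503 tested genes, and 3 did not pass. In the same fit 43.7% of all genes passed: 22.3% were higher (1448 genes, and 18.5% of those off chromosome XI) and 21.4% were lower (1393 genes). Higher genes made up 51.0% of all calls, and 40.9% when libraries were scaled to total reads. Both tagged libraries lay above both WT libraries for 7 members, and for 36% of all tested genes (32.8% of those off chromosome XI). The median log2 fold change of the 10 was 0.52, against 0.00 over all tested genes. PHO84, PHM8 and SPL2 exceeded 99.9%, 99.6% and 99.4% of the genes off chromosome XI, whereas PHO81 exceeded 96.7%, VTC4 95.0%, VTC3 92.7%, VTC1 89.7%, PHO5 63.2%, PHM6 34.5% and PHO89 30.6%.

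**Figure D3:**
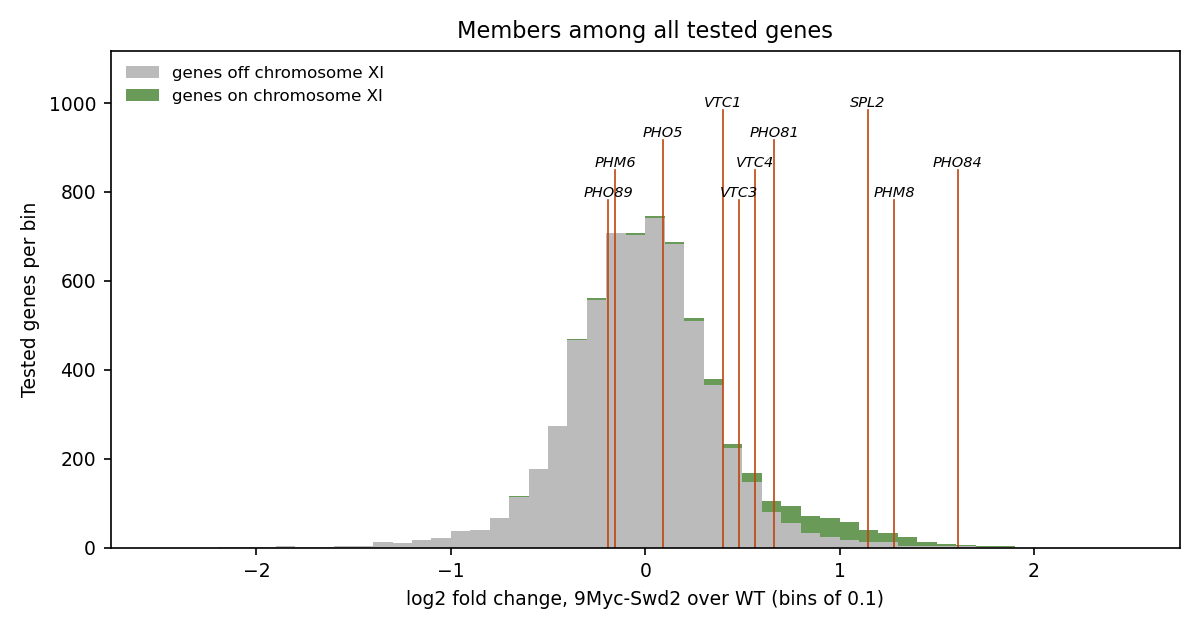
Number of tested genes per bin of 0.1 in log2 fold change of 9Myc-Swd2 over WT, with genes on chromosome XI stacked in green and the 10 members as vertical lines; 1 gene lies outside the range. PHO84, PHM8 and SPL2 lie in the right tail, PHO81 and the VTC genes on the right shoulder, and PHO5, PHM6 and PHO89 near the middle.

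Profiles over the 4 libraries nearest to that of PHO84, by Euclidean distance of log2(value + 1) minus the WT mean among genes of at least 5 CPM (reads scaled to a common library size), belonged to ZPR1 (0.06), ATG41 (0.16), HSP78 (0.18), SRX1 (0.20) and YDR042C (0.21). None of these 5 is in the phosphate lists, and SRX1 lies on chromosome XI. With 4 libraries in 2 groups, the measure mainly ranks genes by the size of their difference between strains: ZPR1, a zinc finger protein that helps an elongation factor fold, was at 2265 and 2238 in WT and at 6459 and 7572 in 9Myc-Swd2.

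Of 38 other genes of the pathway, 9 were higher, 9 lower and 20 did not pass (limma-trend, Benjamini-Hochberg adjusted p under 0.05 over all genes). Both shares, 23.7%, were close to the background off chromosome XI of 18.5% higher and 22.6% lower. The same background applies to the counts by role given below, which cover few genes each, and nothing is read from those counts. The median log2 fold change of the list was 0.04. The list leaves out the members, which were selected on these same fold changes. Its closeness to the background therefore cannot show whether the pathway as a whole stands apart. Of the calls in this list, 7 higher and 3 lower ones were made under all alternatives tried. The other 8 were lost under at least 1. PHO12, DIA3, GDE1, VTC2 and PPX1 did not pass in the authors' deposited table or in DESeq2. DESeq2 on the recovered reads reproduced that table (largest difference in log2 fold change 5.23e-05), so it is not a separate alternative. Where 1 library is left out, its strain keeps a single library that is assumed to vary like the pair of the other strain, so a call lost or gained in that way says little about stability; the fold change is given beside it.

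Among 8 genes for regulators and other factors of the pathway, PHO4 and PHO86 rose. PHO4, the activator of the pathway, was at 546 and 568 normalized counts in WT and at 834 and 728 in 9Myc-Swd2, 0.48 ± 0.08 in log2 fold change (limma-trend adjusted p = 0.000175). PHO86, needed for Pho84 to leave the endoplasmic reticulum, was at 1642 and 1685 in WT and at 2155 and 2121 in 9Myc-Swd2 (0.36 ± 0.07 in log2 fold change, limma-trend adjusted p = 0.000254). Transcripts of the other core factors did not pass: the log2 fold changes were 0.19 ± 0.09 for the partner activator PHO2, 0.18 ± 0.13 for the cyclin PHO80 and -0.10 ± 0.09 for the kinase PHO85. PHO88 (0.15), PHO23 (0.03) and PHO92 (0.01) did not pass either. Without 9Myc-Swd2 replicate 1, PHO85 (-0.22, limma-trend adjusted p = 0.0474) and PHO88 (0.20, limma-trend adjusted p = 0.0269) passed; over all alternatives the adjusted p of PHO85 ran from 0.0474 to 0.915 and that of PHO88 from 0.0269 to 0.389.

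Of 4 genes for enzymes of inositol pyrophosphates, 2 rose, 1 fell and 1 did not pass. KCS1 and VIP1, the kinases that make these molecules, rose from 1154 ± 60.5 to 1510 ± 105 and from 1565 ± 52.0 to 2166 ± 63.4 (SD, n = 2). Their log2 fold changes were 0.39 ± 0.07 (limma-trend adjusted p = 0.000392) and 0.47 ± 0.07 (adjusted p = 2.26e-05). DDP1, a hydrolase that removes pyrophosphates and also cuts polyphosphate, fell from 505 ± 19.6 to 363 ± 0.220 (-0.48 ± 0.09 in log2 fold change, limma-trend adjusted p = 0.000334). SIW14, an inositol pyrophosphate phosphatase, did not pass, at -0.17 ± 0.08 (limma-trend adjusted p = 0.0769); it passed without 9Myc-Swd2 replicate 1 (-0.22, adjusted p = 0.0379; range over the alternatives 0.0226 to 0.266), with the replicate block (0.0467) and with scaling to total reads (0.0226). The calls of KCS1, VIP1 and DDP1 held under all 14 alternatives.

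Of 5 polyphosphate genes outside the members, 3 fell and 2 did not pass, beside 22.6% lower among all tested genes off chromosome XI. PPN1, a vacuolar polyphosphatase, fell from 5217 ± 277 to 4327 ± 21.9 (-0.27 ± 0.07 in log2 fold change, limma-trend adjusted p = 0.00511). PPX1, the cytosolic exopolyphosphatase, fell from 999.6 ± 10.4 to 844 ± 18.7 (-0.24 ± 0.07, limma-trend adjusted p = 0.0103). VTC2, the SPX subunit that is the paralog of VTC3, was at 1831 and 1818 in WT and at 1578 and 1647 in 9Myc-Swd2 (-0.18 ± 0.07, limma-trend adjusted p = 0.0376). The ratio of VTC2 to VTC3 within a library was 1.23 and 1.20 in WT and 0.774 and 0.768 in 9Myc-Swd2. The coding sequences of VTC2 and VTC3 are 66.1% identical and share no 50-base word. VTC5 (0.05) and PPN2 (0.09) did not pass. All 3 falls were small. Over the 14 alternatives the log2 fold change stayed between -0.33 and -0.21 for PPN1, -0.30 and -0.22 for PPX1, and -0.24 and -0.15 for VTC2, while the adjusted p ran from 0.000294 to 0.121, from 0.00203 to 0.104 and from 0.00818 to 0.184. PPX1 and VTC2 did not pass in the authors' deposited table (adjusted p = 0.0614 and 0.122). In limma without a trend PPN1 (adjusted p = 0.0596), PPX1 (0.057) and VTC2 (0.113) did not pass, and with size factors computed without chromosome XI genes VTC2 did not (0.0707). With a library left out, PPN1 did not pass without WT replicate 2 (-0.21, limma-trend adjusted p = 0.121), PPX1 without WT replicate 1 (-0.25, 0.0686) or 2 (-0.23, 0.104), and VTC2 without WT replicate 1 (-0.17, 0.184), WT replicate 2 (-0.18, 0.171) or 9Myc-Swd2 replicate 1 (-0.15, 0.117).

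Of 7 phosphatase and phosphodiesterase genes, 3 rose, 2 fell and 2 did not pass. PHO8, the vacuolar alkaline phosphatase, was at 1308 and 1299 normalized counts in WT and at 2033 and 1849 in 9Myc-Swd2, 0.57 ± 0.07 in log2 fold change (limma-trend adjusted p = 3.72e-06), close in size to VTC4. The other repressible acid phosphatase genes, PHO11 and PHO12, are 99.7% identical and share 87.2% of their 50-base words, so their separate counts are uncertain. PHO12 was at 234 and 247 in WT and at 312 and 307 in 9Myc-Swd2 (0.36 ± 0.10, limma-trend adjusted p = 0.00901), and PHO11, at 0.20 ± 0.13, did not pass. PHO3, the acid phosphatase gene that is not repressed by phosphate, was at 1800.1 and 1843 in WT and at 1662 and 1606 in 9Myc-Swd2 (-0.16 ± 0.07, limma-trend adjusted p = 0.0658); it passed with the replicate block (adjusted p = 0.0357), with scaling to total reads (0.0147), with no filter on low values (0.048) and without 9Myc-Swd2 replicate 1 (-0.18, 0.0476); over the alternatives the adjusted p ran from 0.0147 to 0.307. GDE1, a glycerophosphocholine phosphodiesterase with an SPX domain, rose (0.26 ± 0.07), and PHO13, a phosphoglycolate phosphatase, and the acid phosphatase-like DIA3 fell (-0.24 ± 0.07 and -0.43 ± 0.16). Their limma-trend adjusted p-values were 0.0104, 0.00771 and 0.0335. In the authors' deposited table PHO12 (adjusted p = 0.0718), GDE1 (0.052) and DIA3 (0.165) did not pass. In limma without a trend PHO13 (0.068), GDE1 (0.0857) and DIA3 (0.102) did not pass, and with no filter on low values PHO12 (0.0514), GDE1 (0.0707) and DIA3 (0.177) did not. With a library left out, PHO12 did not pass without WT replicate 1 (0.33, limma-trend adjusted p = 0.0981), nor PHO13 without WT replicate 1 (-0.26, 0.0504) or 2 (-0.23, 0.0929), nor GDE1 without WT replicate 2 (0.22, 0.128) or 9Myc-Swd2 replicate 1 (0.19, 0.0659), nor DIA3 without WT replicate 1 (-0.54, 0.0664), WT replicate 2 (-0.33, 0.29) or 9Myc-Swd2 replicate 1 (-0.26, 0.215). Over the alternatives the adjusted p ran from 0.00261 to 0.0981 for PHO12, 0.00078 to 0.0929 for PHO13, 0.00052 to 0.128 for GDE1 and 0.00132 to 0.29 for DIA3. DIA3 also overlaps YDL022C-A on the same strand by 50 bases.

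**Figure D4:**
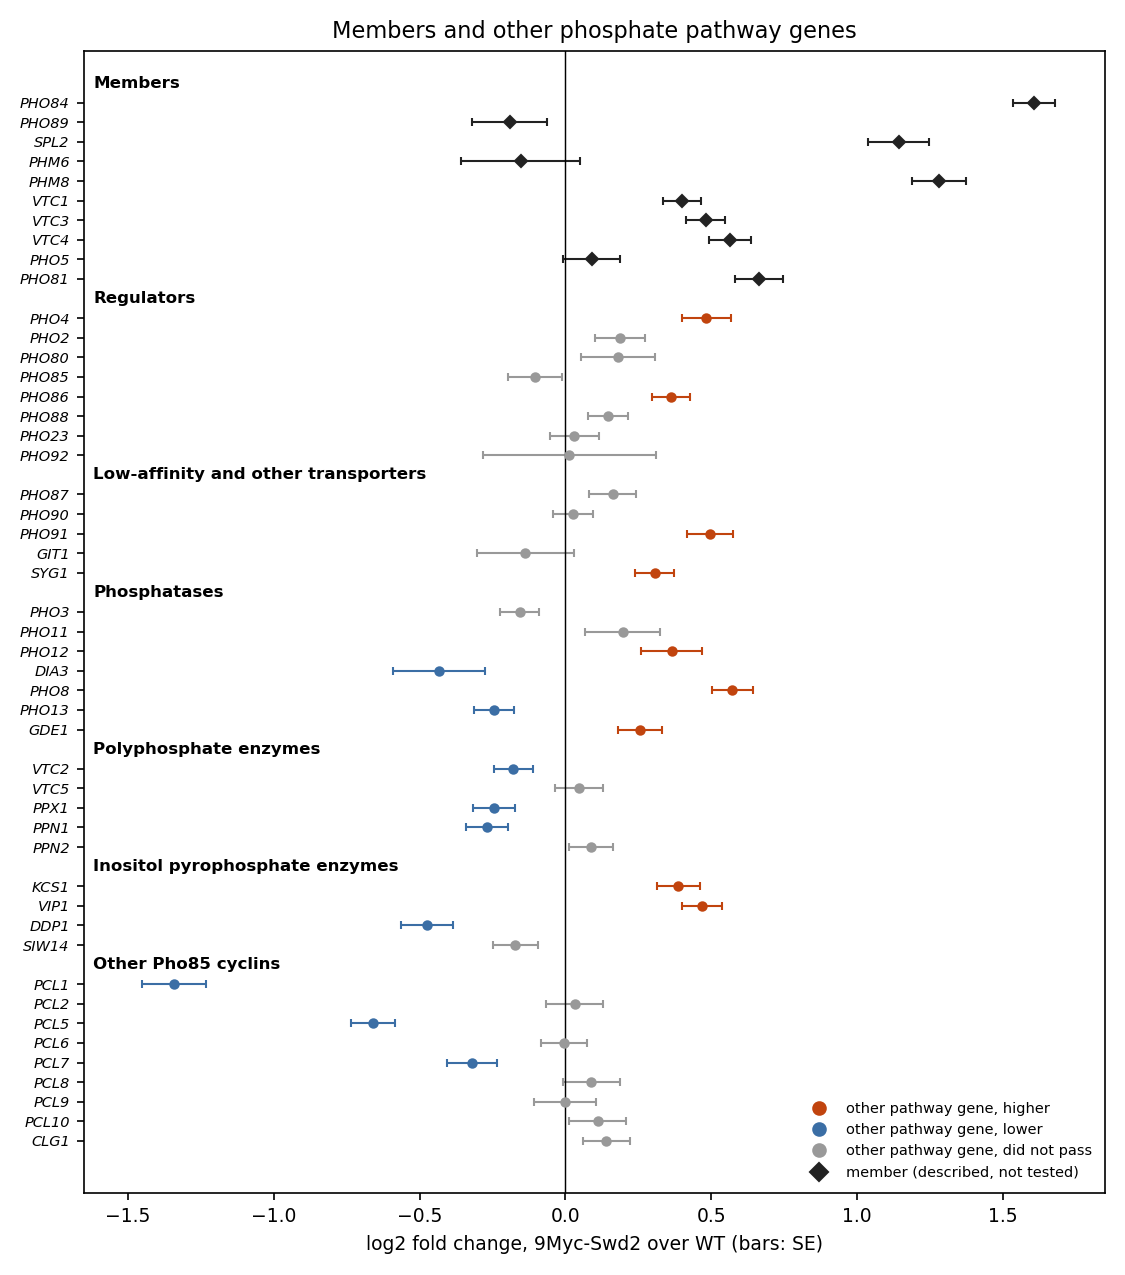
log2 fold changes of 9Myc-Swd2 over WT with SE bars for the 10 members (diamonds) and the 38 other pathway genes by role (circles, coloured by call). PHO84, PHM8 and SPL2 lie farthest to the right and PCL1 farthest to the left, at -1.34.

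Among 5 genes for low-affinity and other transporters, PHO91 and SYG1 rose and 3 did not pass. PHO90, a low-affinity phosphate transporter of the plasma membrane, was at 1318 and 1275 in WT and at 1332 and 1310 in 9Myc-Swd2 (0.03 ± 0.07). PHO87, a transporter on which Spl2 acts, did not pass, at 0.16 ± 0.08 (limma-trend adjusted p = 0.115). It passed with the replicate block (limma-trend adjusted p = 0.0481). Without 9Myc-Swd2 replicate 1 its log2 fold change was 0.26. PHO91, which exports phosphate from the vacuole, rose from 966 ± 52.0 to 1365 ± 130 (0.50 ± 0.08, limma-trend adjusted p = 6.29e-05). SYG1, an SPX domain membrane protein, rose from 1893 ± 67.9 to 2340 ± 6.11 (0.31 ± 0.07, limma-trend adjusted p = 0.00116). The glycerophosphoinositol permease gene GIT1 did not pass either, at -0.14 ± 0.17.

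Of 9 other cyclins that pair with Pho85, 3 fell, and none rose, beside 22.6% lower and 18.5% higher among all tested genes off chromosome XI. PCL1, a G1 cyclin, was at 441 and 452 in WT and at 162 and 191 in 9Myc-Swd2, -1.34 ± 0.11 in log2 fold change (limma-trend adjusted p = 2.8e-08). PCL5, which acts in turnover of the activator Gcn4, was at 2084 and 2417 in WT and at 1453 and 1388 in 9Myc-Swd2 (-0.66 ± 0.08, limma-trend adjusted p = 1.73e-06). PCL7 fell too (-0.32 ± 0.09, limma-trend adjusted p = 0.00561), and did not pass without WT replicate 1, where its log2 fold change was -0.29 (adjusted p = 0.082; range over the alternatives 0.000783 to 0.082). The other 6, PCL2, PCL6, PCL8, PCL9, PCL10 and CLG1, had log2 fold changes between -0.01 (PCL6) and 0.14 (CLG1); CLG1 passed without 9Myc-Swd2 replicate 2 (0.23, adjusted p = 0.0092; range 0.0092 to 0.851).

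Across the 10 SPX domain genes listed, 3 of which are members (PHO81, VTC3 and VTC4), the log2 fold changes ran from -0.18 (VTC2) to 0.66 (PHO81). Of the 7 that are no members, PHO91, SYG1 and GDE1 rose, VTC2 fell, and PHO87, PHO90 and VTC5 did not pass. The word CACGTGGG, picked from the members' sites, stood upstream of 5 of the 38 other pathway genes, beside 0.550% of all windows. These were PHO87, SYG1, PHO11, PHO12 and VTC2, of which PHO11 and PHO12 are 99.7% identical in coding sequence. Either Pho4-type core stood upstream of 20 of the 38, beside 24.4% of all windows. None of the 38 windows held 3 or more cores, beside 0.750% of all windows.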

How the data were processed

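RNA was sequenced from 2 WT and 2 9Myc-Swd2 libraries, which the labels group and number. The submitters' processing notes name bcl2fastq 1.8.4 and the build sacCer3, with aligner, counter and strand setting not given in the sources used here. The deposited table of 6697 genes holds a signal per library: read counts divided by 1 size factor, since 100% of values in each column equalled a whole number of steps (within 1e-06 steps). It also holds the authors' log2 fold changes with standard errors, per the file headers, and beside them a score, the Wald statistic, and raw and adjusted p-values; the deposited log10 group means were not used. The members and lists were chosen with earlier results of these data known.

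The test was limma-trend (limma 3.58.1) on log2(value + 1) with group as the only term, over the 6503 genes with a mean of at least 1, with two-sided p-values adjusted by the Benjamini-Hochberg method at 0.05; the scale understates changes of low genes. The design allowed for raw counts; the columns were normalized values, so this test applied. edgeR 4.0.16 and DESeq2 1.42.0 on the recovered reads, other filters, pseudocounts and scalings, a replicate block, the authors' comparison and each library left out were alternatives. Named genes were the 10 members, all 38 listed pathway genes, SWD2, LEU2 and the 5 profiles nearest to PHO84. 2 pathway genes, VTC5 and PPN2, were matched through their RefSeq locus tags. 683 table identifiers had no RefSeq record, so overlaps with them were not tested. Positions are 1-based.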

Additional observations from a re-analysis of the deposited data

How the results depend on the processing

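Of the 10 members, 7 had a positive log2 fold change under all 14 alternatives. PHO89, PHM6 and PHO5 changed sign with 1 library left out. These are counts of signs, not of calls. The filters, limma without a trend and the replicate block leave a member's fold change as it was, so they could not change its sign. DESeq2 and the authors' comparison are in effect 1 setting. The members were also selected on these fold changes, so nothing is read from the count. The median log2 fold change of PHO84, PHO89 and SPL2 is the value of SPL2, 1.14 (1.13 to 1.16 with a library left out, 1.09 to 1.17 otherwise), and hides PHO89, which ran from -0.45 to 0.06; that of PHO5, VTC1, VTC3 and VTC4 was 0.44 (0.42 to 0.46, and 0.38 to 0.46). All genes called numbered 1448 higher and 1393 lower; without a filter on low values they were 950 and 847, and limma without a trend gave 882 lower. With a library left out the counts ran from 982 to 1597 higher and from 795 to 1438 lower, the latter lowest without WT replicate 2. The other pathway genes called lower were 9, but 4 with limma without a trend and 4 to 10 with a library left out (4 without either WT replicate); those called higher were 9, 8 to 10 with a library left out and 7 to 10 otherwise. The causes were not tested. Same-numbered libraries deviated together with a correlation of 0.17 over 5860 genes, but with 2 pairs they share only a number; the replicate block gave 1619 higher and 1566 lower genes, and 10 and 11 of the other pathway genes. With 2 libraries per strain, p-values rest on a spread estimated from few samples, and PHM6, at 57 to 86 reads, is limited by depth.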
